A study of Mus musculus with 40 samples.

Results

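The lysyl oxidase family of the mouse has 5 genes, Lox, Loxl1, Loxl2, Loxl3 and Loxl4, and all of them were among the 21204 genes of the filtered expression table. They were taken by gene symbol from the normalised values of these 21204 genes. The family was chosen by the difference in Loxl2 reads between the ages at 0 days post-resection (dpr), so that comparison is given here as values without a test. Total RNA was sequenced from rib tissue of wild-type female C57BL/6 mice, dissected as bone with intercostal muscle, and bone marrow by the sample labels. The skeletally immature mice were 7 weeks old and the skeletally mature mice were over 10 months old. The stages were baseline, 0, 2, 5 and 14dpr. Baseline is used in the paper for the state before resection where imaging is described, while the sample labels describe the tissue of every group, baseline included, as taken after it, so the state of the baseline tissue is not settled by these sources. There was no genetic change and no drug in any group. Of the 10 groups, 9 held 4 libraries, and mature mice at 5dpr held 3. The 39 libraries held between 6057756 and 21537070 counted reads, with a median of 9087417. Whether each library came from a separate animal is not stated in the labels, so the p-values measure the spread between these libraries.

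Lysyl oxidases are secreted copper enzymes. They oxidise lysine and hydroxylysine side chains of collagen and elastin to aldehydes, which then condense into the covalent cross-links that hold fibres together. In bone, these cross-links stiffen the collagen scaffold on which mineral is laid down, and in a callus the enzymes act on the new collagen that fills the defect. Lox and Loxl1 are made with a propeptide that is removed outside the cell, Bmp1 being the main protease for the Lox propeptide. Loxl2, Loxl3 and Loxl4 instead carry scavenger receptor cysteine-rich domains ahead of the catalytic domain, and Loxl2 is best known for its action on the type IV collagen of basement membranes.

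A coding stretch with 4 histidine codons of the copper-binding part of the catalytic domain was found once in each of the 5 genes, by searching the translated transcripts for the family's histidine pattern. It is shown for 4 of them, with the histidine codons in capitals, because the copper site is the feature that the family shares. Each is written 5′ to 3′ on the coding strand, read from GENCODE vM21 transcripts of build GRCm38, and in each gene it runs across an exon junction, so that the interval given includes an intron.
Loxl1, chr9:58293720-58294375, minus strand, exons 3 and 4: tggCATagctgtCACcaaCATtacCAC
Loxl2, chr14:69682322-69689037, plus strand, exons 10 and 11: tggCACgactgcCACaggCACtacCAC
Loxl3, chr6:83050001-83050125, plus strand, exons 10 and 11: tggCATgagtgtCATgggCATtacCAC
Loxl4, chr19:42598807-42599893, minus strand, exons 11 and 12: tggCACcagtgcCACaggCACtacCAC
Over these 27 bases, Loxl2 and Loxl4 shared 25, Loxl2 and Loxl3 shared 21, and Loxl1 and Loxl4 shared the fewest, 18. Across whole transcripts, the longest run of identical bases in any pair of members was 32, between Lox and Loxl1, which is shorter than the sequenced reads.

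The Loxl2 gene lies at chr14:69609068-69695834 on the plus strand, with 14 exons in its first coding transcript. An antisense gene model, Gm27177, covers 2245 of its 5405 exonic bases. Loxl3 lies at chr6:83034173-83052562 on the plus strand, and 1297 of its 4603 exonic bases fall within Htra2, a mitochondrial protease gene on the opposite strand. The mean level of Htra2 lay between 23.8 and 41.9 CPM (reads scaled to a common library size) in all 10 groups. In mature mice Htra2 had 34.5 to 40.3 CPM at baseline and 21.9 to 27.9 CPM at 0dpr, without overlap. Lox, which is on the minus strand of chromosome 18, shares 995 of its 4778 exonic bases with an antisense gene model. The library kit keeps the strand, but the sources used here do not say whether reads were counted by strand. Loxl1 (chr9:58287738-58313186) and Loxl4 (chr19:42593982-42612813) overlapped no other gene model, and both are on the minus strand.

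Lox, Loxl1, Loxl2 and Loxl3 had higher mean levels in the callus from 2dpr on than in resting or freshly cut rib of the same age. Levels are CPM normalised by the trimmed mean of M values (TMM). At baseline, Lox had 76.9, 89.0, 89.5 and 76.5 CPM in the immature libraries and 64.9, 80.1, 50.9 and 47.8 CPM in the mature libraries. At 2dpr the immature libraries held 309, 460, 437 and 383 CPM of Lox, and the mature libraries held 382, 388, 404 and 257 CPM. Every 2dpr library therefore lay above every baseline library of either age, while the ages overlapped at both stages.

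**Figure D1:**
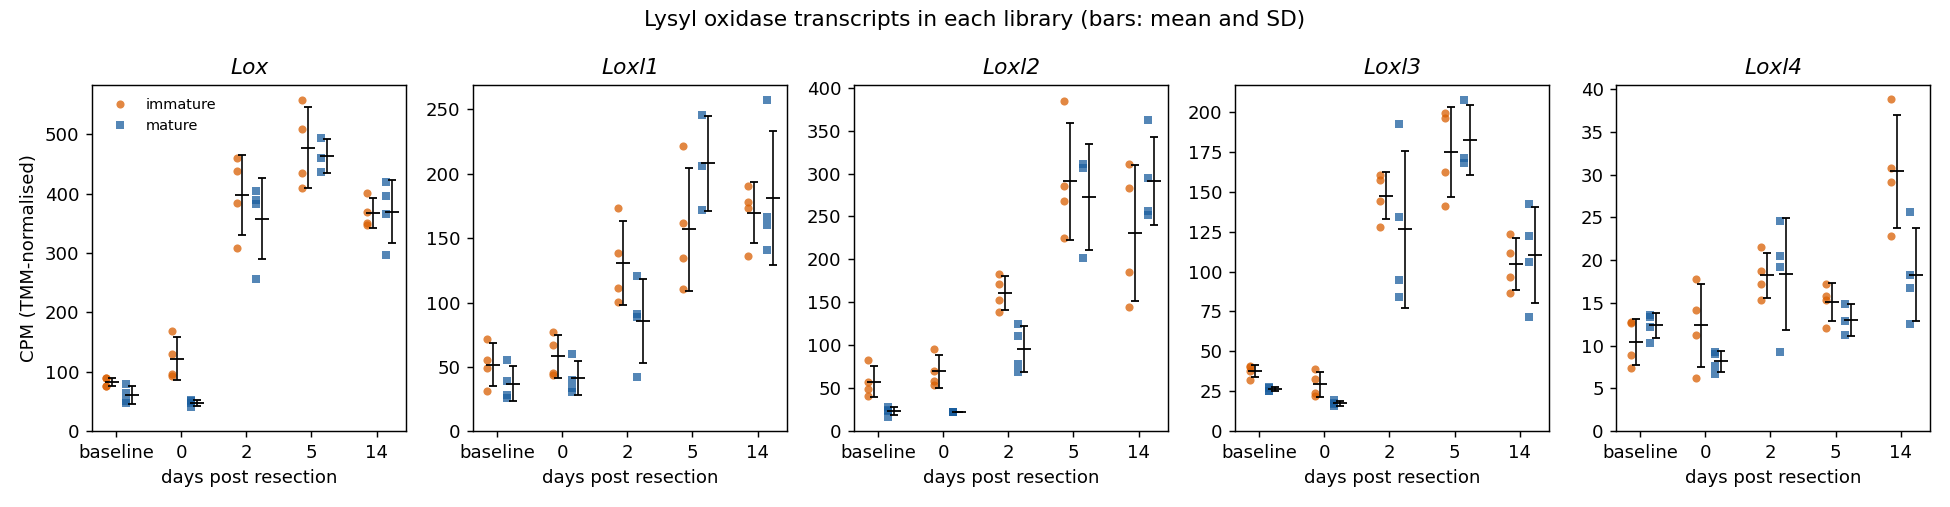
CPM of each lysyl oxidase gene (vertical axes, linear, from 0) by stage, with circles for immature and squares for mature libraries and bars for the mean and SD. Lox, Loxl1, Loxl2 and Loxl3 were higher in the callus from 2dpr on, and the mature Loxl2 libraries at baseline and 0dpr lay below all immature ones.

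Per kilobase of exon, a scale on which the genes can be set side by side, Lox had the highest mean of the family in 9 of the 10 groups. In immature mice, the mean level of Lox went from 17.4 ± 1.52 CPM per kilobase at baseline to 99.9 ± 14.2 at 5dpr (SD, n = 4). In mature mice it went from 12.7 ± 3.10 (n = 4) to 97.0 ± 5.94 (n = 3). The exception was mature tissue at 0dpr, where Loxl1 had 12.5 ± 4.04 and Lox 10.1 ± 1.05 CPM per kilobase, with overlapping ranges. Loxl4 had the lowest mean in all 10 groups, between 1.94 and 7.21 CPM per kilobase. Its range overlapped that of the next gene in 1 group, mature baseline, where Loxl2 was at 4.31 ± 0.913 and Loxl4 at 2.94 ± 0.353 CPM per kilobase. The second place changed hands between Loxl1, Loxl2 and Loxl3, and at 5dpr the ranges of Loxl1 and Loxl2 overlapped in both ages.

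The first question was how each gene moved from baseline through callus formation within an age. With edgeR's quasi-likelihood test on the counts, adjusted by the Benjamini-Hochberg method over all 21204 genes and called at an adjusted p under 0.05, all 5 members were higher at 2dpr than at baseline in immature mice, where 18.7% of all genes were called higher and 18.6% lower. At 5dpr 4 of the 5 were higher (15.7% of all genes, with 13.7% lower) and at 14dpr again all 5 (16.4% and 15.1%). In mature mice 4 of the 5 were higher at 2, 5 and 14dpr, against 19.3%, 17.3% and 17.1% of all genes called higher and 20.8%, 15.4% and 16.4% called lower. No member was called lower at these stages in either age. The median log2 change of the 5 genes was 1.49, 2.21 and 1.71 at 2, 5 and 14dpr in immature mice, and 2.04, 2.79 and 2.29 at the same stages in mature mice, while the median over all genes stayed between -0.06 and 0.00. In bulk tissue, fewer cells of a type and less RNA per cell cannot be told apart.

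**Figure D2:**
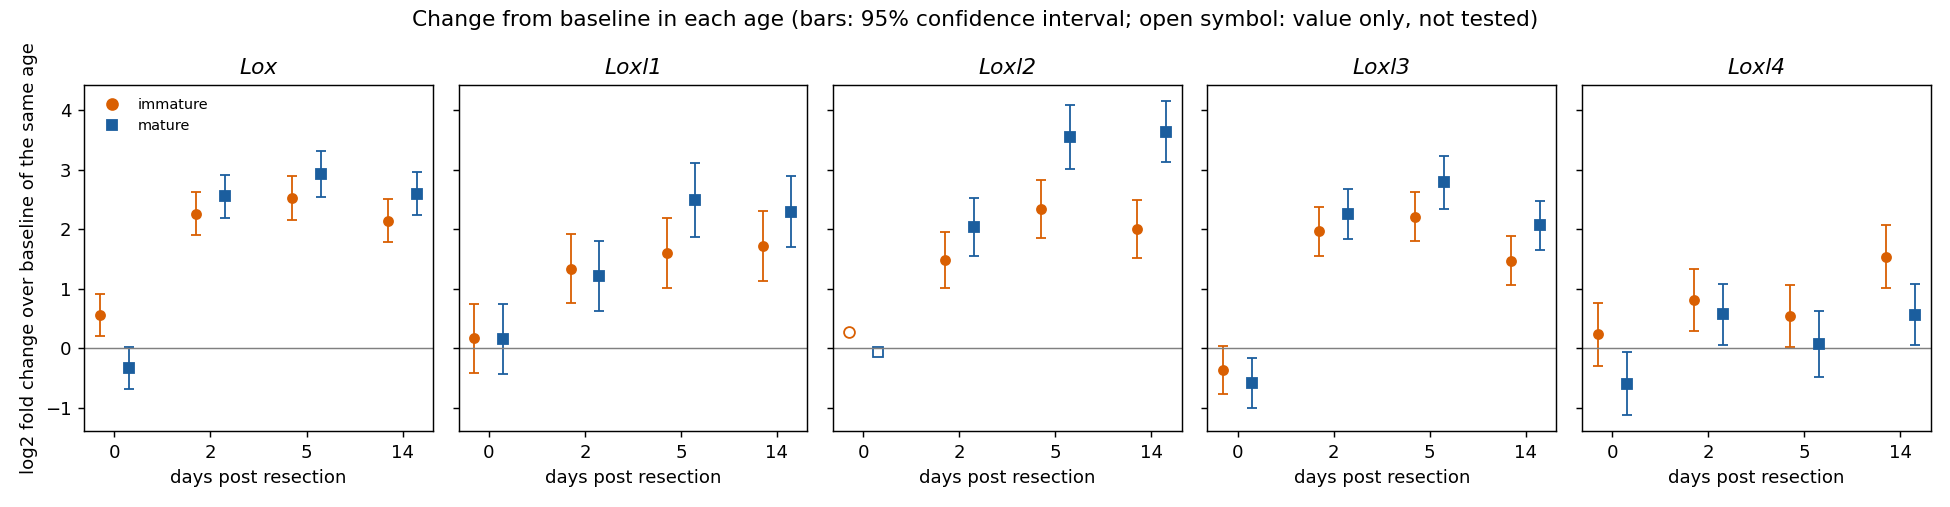
Log2 fold change over baseline of the same age (vertical axis) for each gene by days post-resection, circles for immature and squares for mature mice, bars for the 95% confidence interval, and open symbols for values that were not tested. Loxl2 in mature mice reached 3.55 at 5dpr and 3.64 at 14dpr, and Loxl4 in mature mice stayed between -0.60 and 0.57.

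Lox, the founding member and the main cross-linking enzyme of collagen fibrils, rose by 2.26 ± 0.179 (log2 fold change ± SE) at 2dpr in immature mice, a 4.79-fold change (adjusted p = 2.63e-12 in edgeR). In mature mice the rise at 2dpr was 2.55 ± 0.181 (adjusted p = 1.95e-13). Its highest means were at 5dpr, 477 ± 67.8 CPM in immature (SD, n = 4) and 464 ± 28.4 CPM in mature mice (n = 3). Among the 6 groups from 2dpr on, each overlapped its neighbour when they were ordered by mean. Groups further apart did not always overlap: within each age every 5dpr library was above every 14dpr library, and in mature mice also above every 2dpr library. These steps did not pass the test (adjusted p = 0.283 for immature and 0.347 for mature mice from 5 to 14dpr, and 0.177 for mature mice from 2 to 5dpr).

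The immature 0dpr libraries had 169, 130, 92.6 and 95.7 CPM, all above the immature baseline, with a log2 change of 0.55 ± 0.172 (adjusted p = 0.0342), in a comparison where 5.98% of all genes were called higher. This call held in 2 of 8 fits that left out 1 library each (adjusted p up to 0.240), being lost without any 1 of the immature baseline libraries or without immature 0dpr replicate 1 or 2. It was lost with a block for the replicate number (log2 change 0.47, adjusted p = 0.141), and when only these libraries were fitted (adjusted p = 0.159). In the mature libraries at 0dpr Lox had 41.3, 52.6, 48.1 and 50.8 CPM, within the mature baseline range except for 1 library below it, and the log2 change of -0.34 ± 0.174 did not pass the test (adjusted p = 0.165).

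Loxl1, a relative of Lox tied to the upkeep of elastic fibres, had 71.7, 55.6, 48.8 and 31.0 CPM in immature and 25.7 to 55.1 CPM in mature baseline libraries. In immature mice its log2 change from baseline was 1.34 ± 0.287 at 2dpr, 1.60 ± 0.289 at 5dpr and 1.71 ± 0.290 at 14dpr (adjusted p = 0.000303, 4.47e-05 and 1.47e-05). In mature mice it was 1.21 ± 0.288 at 2dpr (adjusted p = 0.000859), where 1 library, at 42.2 CPM, still lay within the baseline range. It then reached 2.49 ± 0.310 at 5dpr and 2.29 ± 0.296 at 14dpr. Between 2 and 5dpr Loxl1 rose again in mature mice, from 42.2 to 121 CPM up to 172 to 246 CPM (log2 change 1.28 ± 0.300, adjusted p = 0.00319), a step in which 8.16% of all genes were called higher. In the fit of these libraries alone the adjusted p was 0.0541. The same step in immature mice was 0.26 ± 0.280 (adjusted p = 0.691).

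Loxl2 had the largest changes from baseline of the family in mature mice at 5 and 14dpr. The mature libraries held 25.3, 23.4, 16.5 and 28.0 CPM at baseline and 362, 251, 256 and 295 CPM at 14dpr, a log2 change of 3.64 ± 0.255 or 12.5-fold (adjusted p = 3.17e-13). At 5dpr they held 202, 311 and 307 CPM, a change of 3.55 ± 0.262 or 11.7-fold (adjusted p = 1.09e-12). The immature libraries started higher, at 49.6, 57.7, 82.5 and 40.7 CPM, and reached 286, 268, 385 and 225 CPM at 5dpr and 283, 185, 311 and 145 CPM at 14dpr. Their log2 changes were 2.34 ± 0.240 at 5dpr and 2.00 ± 0.237 at 14dpr, or 5.05-fold and 4.01-fold (adjusted p = 1.93e-09 and 3.36e-08). Both ages thus arrived at overlapping levels from baselines that did not overlap.

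Loxl2 also rose between 2 and 5dpr in both ages. In mature mice it went from 125, 111, 68.6 and 77.9 CPM to the 5dpr levels above, a log2 change of 1.51 ± 0.245 (adjusted p = 3.95e-05). In immature mice it went from 138, 183, 171 and 153 CPM, a log2 change of 0.85 ± 0.229 (adjusted p = 0.0154), in a step where 4.37% of all genes were called higher. The immature call was lost without immature 2dpr replicate 1 or without immature 5dpr replicate 4, with a highest adjusted p of 0.0944.

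Loxl3, which in the mouse is needed for palate and spine formation, had its highest mean at 5dpr in both ages and a lower one at 14dpr. Its baseline libraries held 32.3 to 40.6 CPM in immature and 25.0 to 28.0 CPM in mature mice. At 2dpr they held 128 to 160 and 84.2 to 193 CPM, and at 5dpr 141 to 199 and 168 to 207 CPM. The step from 2 to 5dpr was not called in either age. Its log2 change was 0.25 ± 0.194 in immature and 0.53 ± 0.208 in mature mice (adjusted p = 0.555 and 0.0853 in edgeR), with overlapping ranges. From baseline to 5dpr the log2 change was 2.21 ± 0.204 in immature and 2.79 ± 0.217 in mature mice (adjusted p = 1.91e-10 and 3.60e-12). By 14dpr the level had fallen to 86.3 to 124 and 71.3 to 142 CPM. The step from 5 to 14dpr was -0.74 ± 0.195 in immature and -0.72 ± 0.208 in mature mice (adjusted p = 0.0259 and 0.0399), where 1.45% and 2.23% of all genes were called lower. The immature call held in 4 of 8 fits with 1 library left out, and was lost without immature 14dpr replicate 2 or 4 or immature 5dpr replicate 3 or 4. The mature call held in 1 of 7, the fit without mature 14dpr replicate 1. With size factors by relative log expression the mature call had an adjusted p of 0.0558. In freshly resected mature tissue Loxl3 had 16.1 to 19.7 CPM, below every mature baseline library (log2 change -0.59 ± 0.207, adjusted p = 0.0374, 10.6% of all genes called lower), a call that held in 2 of 8 such fits, those without mature baseline replicate 4 or mature 0dpr replicate 4.

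Loxl4 was the member with the lowest counts, 48 to 414 reads per library. In immature mice it had 8.91, 12.7, 12.8 and 7.37 CPM at baseline and 30.8, 29.1, 22.8 and 38.9 CPM at 14dpr, with no overlap (log2 change 1.54 ± 0.259, adjusted p = 1.32e-05). Most of this came after 5dpr, when the immature libraries held 12.1 to 17.3 CPM. The step from 5 to 14dpr was 1.00 ± 0.253 (adjusted p = 0.0192, 1.73% of all genes called higher), and it held in 5 of 8 fits with 1 library left out, being lost without immature 14dpr replicate 4 and immature 5dpr replicates 2 and 4. In mature mice Loxl4 had 10.4 to 13.6 CPM at baseline and 12.6 to 25.6 CPM at 14dpr, and the log2 change of 0.56 ± 0.255 did not pass the test (adjusted p = 0.0887). At 2dpr Loxl4 was higher than at baseline in immature mice (0.81 ± 0.257, adjusted p = 0.0126). That call was lost with the replicate block (log2 change 0.63, adjusted p = 0.0918) and without immature baseline replicate 6.

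From freshly resected tissue to 2dpr, 3 of the 4 members tested rose in immature mice (21.8% of all genes called higher) and 4 of 4 in mature mice (22.7%). Loxl3 rose by 2.34 ± 0.207 and 2.85 ± 0.214 on the log2 scale (adjusted p = 2.99e-11 and 3.56e-13), and Lox by 1.71 ± 0.175 and 2.89 ± 0.184 (adjusted p = 7.26e-10 and 7.98e-15). Loxl4 rose by 1.17 ± 0.262 in mature mice (adjusted p = 0.000352), and its immature value was 0.57 ± 0.257 (adjusted p = 0.0704). Loxl2 was not tested in this step, since the 0dpr libraries chose it, and its log2 changes were 1.21 and 2.11.

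Tissue makeup moved with these changes. The sum of 15 skeletal muscle genes ranged from 57505 to 78425 CPM in immature baseline libraries and from 12827 to 19055 CPM at 2dpr. In mature mice it ranged from 32050 to 66378 CPM at baseline and from 9030 to 18652 CPM at 2dpr. At 0dpr the muscle sum was 65335 to 138085 CPM in immature and 74534 to 151457 CPM in mature libraries. From baseline to 2dpr, the sum of 7 macrophage genes went from 564 to 852 CPM up to 3010 to 4039 CPM in immature mice. In mature mice it went from 810 to 1397 CPM up to 3146 to 4036 CPM. The sum of 7 fibroblast genes was 694 to 957 and 580 to 880 CPM at baseline and 1955 to 3089 and 2474 to 3161 CPM at 14dpr. None of the genes in these 3 lists had 0 reads throughout a group. The 7 chondrocyte genes found summed to 35.2 to 76.6 CPM in immature and 42.3 to 72.4 CPM in mature baseline libraries. At 5dpr they summed to 105 to 461 and 31.3 to 123 CPM, and at 14dpr to 608 to 2923 and 125 to 2800 CPM. On the log2 scale mature Loxl2 was already 3.55 above baseline at 5dpr, against 3.64 at 14dpr. Immature Loxl4 was 0.54 above baseline at 5dpr and 1.54 at 14dpr. With the mean log2 level of the muscle list as a covariate, Lox, Loxl2 and Loxl3 were still called higher at 2dpr in both ages, at smaller log2 changes for Lox (1.504 in immature and 1.83 in mature mice) and Loxl3 (1.20 and 1.49). Loxl1 lost its call at 2dpr at log2 changes of 1.11 and 0.98 (adjusted p = 0.165 and 0.192), and so did immature Loxl4 at 0.50 (adjusted p = 0.568). The covariate also ended the 14dpr calls of immature Loxl3 (0.79, adjusted p = 0.0932) and Loxl4 (1.26, adjusted p = 0.0574), and the 0dpr call of mature Loxl3 (-0.17, adjusted p = 0.790). For the step from 0 to 2dpr it ended those of Loxl1 in both ages (0.90 and 0.71, adjusted p = 0.427 and 0.662), immature Lox (0.80, adjusted p = 0.111) and mature Loxl4 (0.71, adjusted p = 0.617). It added 3 calls, Lox in immature mice from 5 to 14dpr (-0.54, adjusted p = 0.0492), and Lox and Loxl3 in mature mice from 2 to 5dpr (0.77 and 0.94, adjusted p = 0.0104 and 0.0102). The part of macrophages, fibroblasts and chondrocytes in these results was not tested.

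The second question was whether the ages differed at a stage. At baseline 1 of the 5 genes was called, Loxl2, in a comparison where 0.585% of all genes were called and 0.358% were called higher in immature mice. Its lowest immature library, at 40.7 CPM, lay above its highest mature one, at 28.0 CPM. The mean was 57.6 ± 18.0 CPM in immature and 23.3 ± 4.94 CPM in mature mice (SD, n = 4 each), a log2 difference of 1.31 ± 0.238 or 2.47-fold, with a 95% confidence interval of 0.82 to 1.79 and an adjusted p of 0.00475 in edgeR. The call was kept in all 8 fits that left out 1 baseline library, with log2 differences from 1.07 to 1.44 and adjusted p up to 0.0463, and with the muscle covariate (1.37, adjusted p = 0.00904). Marker lists for makeup were also compared between the ages at baseline. The median log2 difference of immature from mature mice was 0.59 over 15 muscle genes, -0.61 over 7 macrophage genes, -0.67 over 6 neutrophil genes, 0.25 over 7 fibroblast genes and 0.24 over 10 osteoblast and osteocyte genes, with none of these genes called. For endothelial genes the median was 0.07 and for chondrocyte genes -0.05. The macrophage sums were 564 to 852 CPM in immature and 810 to 1397 CPM in mature libraries, with overlap, and the baseline muscle sums given above overlapped too. The part of cells other than muscle in the Loxl2 difference was not tested.

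The other members at baseline were closer. Loxl3 was 0.51 ± 0.201 higher in immature mice with no overlap between the ages (32.3 to 40.6 against 25.0 to 28.0 CPM), but its adjusted p was 0.283, and 0.0454 when the baseline libraries were fitted alone. The log2 difference of Lox was 0.44 ± 0.173 (adjusted p = 0.279) and that of Loxl1 0.49 ± 0.287 (adjusted p = 0.551). Loxl4 was 0.25 ± 0.259 lower in immature mice on the log2 scale (adjusted p = 0.785).

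**Figure D3:**
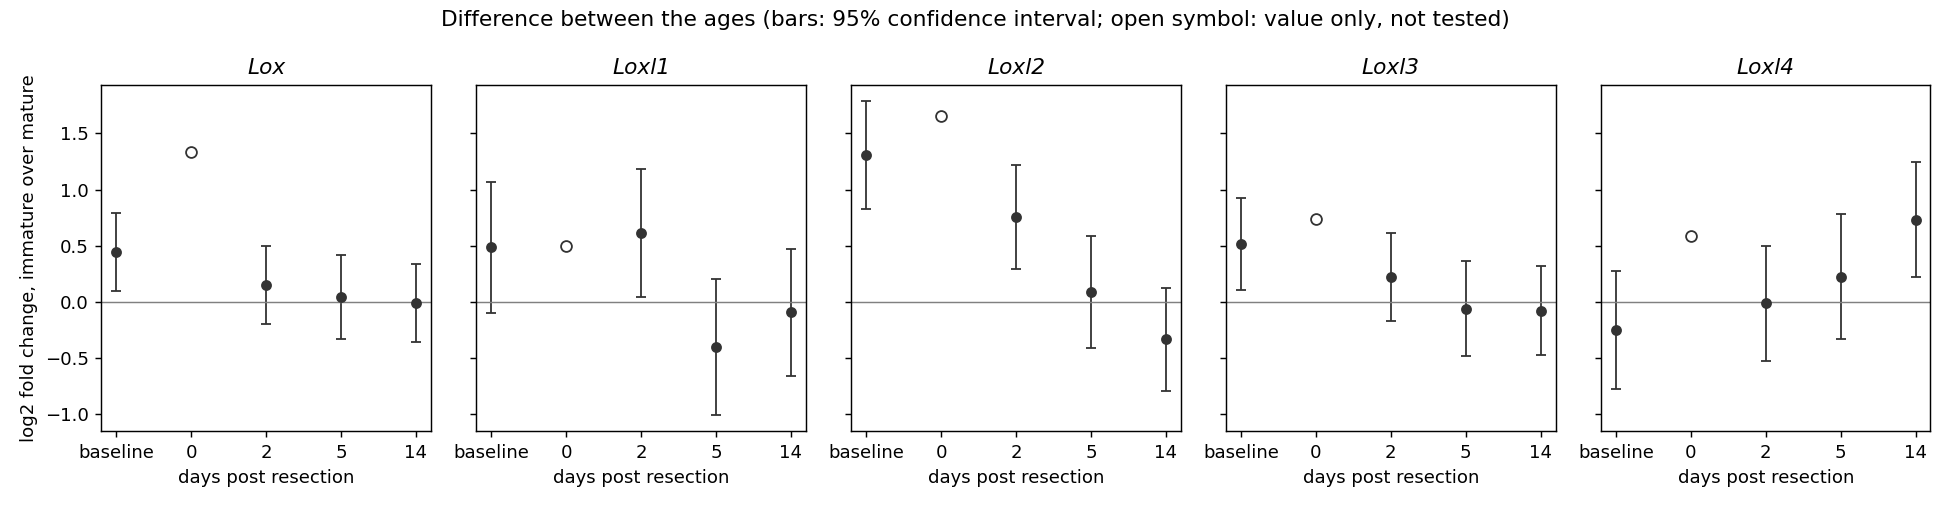
Log2 fold change of immature over mature mice (vertical axis) for each gene by stage, with bars for the 95% confidence interval and open symbols for 0dpr, which was not tested. Loxl2 ran from 1.31 at baseline to -0.33 at 14dpr, and Loxl4 from -0.25 to 0.73.

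At 0dpr, the comparison by which the family was chosen, Loxl2 had 95.9, 53.9, 69.6 and 59.0 CPM in the immature and 22.4, 21.8, 21.9 and 22.4 CPM in the mature libraries, a log2 difference of 1.65. The 4 mature libraries were within 1 CPM of each other. Lox and Loxl3 had log2 differences of 1.34 and 0.74 without overlap, and Loxl1 and Loxl4 had 0.50 and 0.59 with overlap. The share of all genes without overlap at 0dpr was not counted, so these ranges are a description. At this stage 0.726% of all genes were called, and no call is read from it here for the family.

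At 2dpr no member passed the test (0.627% of all genes called). Loxl2 was the nearest, with all 4 immature libraries, 138 to 183 CPM, above the mature ones, 68.6 to 125 CPM. The log2 difference was 0.75 ± 0.229, with a 95% interval of 0.29 to 1.22 and an adjusted p of 0.124. Loxl1 differed by 0.61 ± 0.281 (adjusted p = 0.339) and Lox by 0.15 ± 0.170 (adjusted p = 0.756).

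At 5dpr none of the 5 genes and no gene of the whole table was called in edgeR. An unadjusted p under 0.05 was held by 1081 of 21204 genes, near the number that chance alone gives at that threshold. The 95% intervals of the log2 difference were -0.33 to 0.41 for Lox, -1.01 to 0.21 for Loxl1, -0.41 to 0.59 for Loxl2, -0.48 to 0.36 for Loxl3 and -0.33 to 0.78 for Loxl4. At 14dpr 0.00943% of all genes were called, none of them a member (968 genes had an unadjusted p under 0.05, again near the chance number). Loxl4 was 0.73 ± 0.252 higher in immature mice, with 22.8 to 38.9 against 12.6 to 25.6 CPM, and did not pass (adjusted p = 0.862). The intervals at 14dpr were -0.36 to 0.33 for Lox and -0.80 to 0.13 for Loxl2.

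The third question was whether the change from baseline differed between the ages, tested as an interaction of age and stage. Of 15 tests over the 5 genes at 2, 5 and 14dpr, 1 was called, Loxl2 at 14dpr, where 0.0472% of all genes were called in either direction. Its log2 change was 1.64 ± 0.329 lower in immature than in mature mice, with a 95% interval of -2.31 to -0.97 (adjusted p = 0.0357). This comparison uses the same baseline libraries as the age difference at baseline, so it does not add to it independently. The call was kept in 5 of 16 fits with 1 library left out, where the log2 value ran from -1.82 to -1.41 and the adjusted p reached 0.175. It was lost with size factors by relative log expression (adjusted p = 0.0553) and with the muscle covariate (log2 value -1.72, adjusted p = 0.0575). At 5dpr the same interaction was -1.22 ± 0.339 (adjusted p = 0.322). For Loxl4 at 14dpr it had the other sign, 0.98 ± 0.361 (adjusted p = 0.452).

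The genes that encode the substrates of the enzymes were then set beside them. Of 11 fibrillar collagen genes, 1 was called between the ages at baseline, Col3a1, the chain of type III collagen of early repair tissue, with 3286 ± 547 CPM in immature and 882 ± 345 CPM in mature mice (log2 difference 1.90 ± 0.220, adjusted p = 7.81e-06). At 2dpr Col1a2 and Col3a1 were called higher in immature mice, by 1.27 ± 0.304 and 0.86 ± 0.214 (adjusted p = 0.0401 and 0.0490), against 0.457% of all genes. At 5 and 14dpr none was called. The change of Col3a1 from baseline also differed between the ages, by -1.71 ± 0.313 at 5dpr (adjusted p = 0.0258, with 0.0330% of all genes called) and -2.16 ± 0.304 at 14dpr (adjusted p = 0.000644).

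At 2dpr, when 5 members of the enzyme family were higher in immature and 4 in mature mice, the fibrillar collagens were 3 higher and 2 lower of 11 in immature mice, and 4 higher and 5 lower in mature mice. Over all genes 18.7% were called higher and 18.6% lower in the immature comparison (19.3% and 20.8% in the mature one), so the immature collagen counts were near the background. The median log2 change of the 11 was 0.03 in immature and -1.04 in mature mice, where the median over all genes was -0.05 and -0.06. Col1a1, the main chain of bone collagen, changed by -0.62 ± 0.391 in immature mice (adjusted p = 0.223) and fell by 1.75 on the log2 scale in mature mice (SE 0.401, adjusted p = 0.000605), from 6918 ± 3000 to 2060 ± 737 CPM (SD, n = 4). Col3a1 rose by 1.35 and 2.38 on the same scale in immature and mature mice. By 14dpr, 10 of the 11 collagens were higher than baseline in both ages (median 1.45 and 1.91, against -0.04 and -0.03 over all genes, of which 16.4% and 17.1% were called higher), with Col1a1 at 18813 ± 4295 CPM in immature and 16582 ± 4826 CPM in mature mice.

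The summed CPM of the 5 enzymes was then divided by the summed CPM of the 11 collagens. At baseline there were 7.19 to 16.6 enzyme CPM per 1000 collagen CPM in immature and 7.67 to 13.0 in mature libraries (n = 4 each), a log2 difference of 0.05 (adjusted exact permutation p = 0.914). At 2dpr the immature libraries had 34.3, 47.1, 39.6 and 30.8 and the mature libraries 67.8, 62.2, 65.2 and 57.6, with no overlap. The log2 ratio was 0.75 lower in immature mice (exact two-sided permutation p = 0.0286, the smallest that 4 against 4 libraries allow, and 0.114 after adjustment over the 4 stages tested). With only 1 stage at that smallest p, its adjusted p could not fall under 0.05, so it does not decide whether the ages differed at 2dpr. The log2 difference was -1.06 with Col1a1 and Col1a2 alone as the denominator, and -0.38 as a difference of the median log2 levels of the enzymes and the collagens. At 5dpr the ratio was 22.8 ± 4.21 in immature and 29.4 ± 2.45 in mature mice (n = 3, adjusted exact p = 0.171), and at 14dpr 13.6 ± 2.21 and 15.6 ± 1.32 (adjusted exact p = 0.229). At 0dpr the immature libraries had 14.1, 11.3, 27.1 and 12.1 and the mature libraries 14.1 to 20.9. The marker sums for osteoblasts and osteocytes, cells that make type I collagen, ranged from 144 to 484 CPM in immature and from 38.0 to 304 CPM in mature mice at 2dpr, and from 870 to 1636 and 995 to 1282 CPM at baseline. Their median log2 difference at 2dpr was 1.62, higher in immature mice, and none of the 10 genes was called. Their part in the ratio was not tested.

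**Figure D4:**
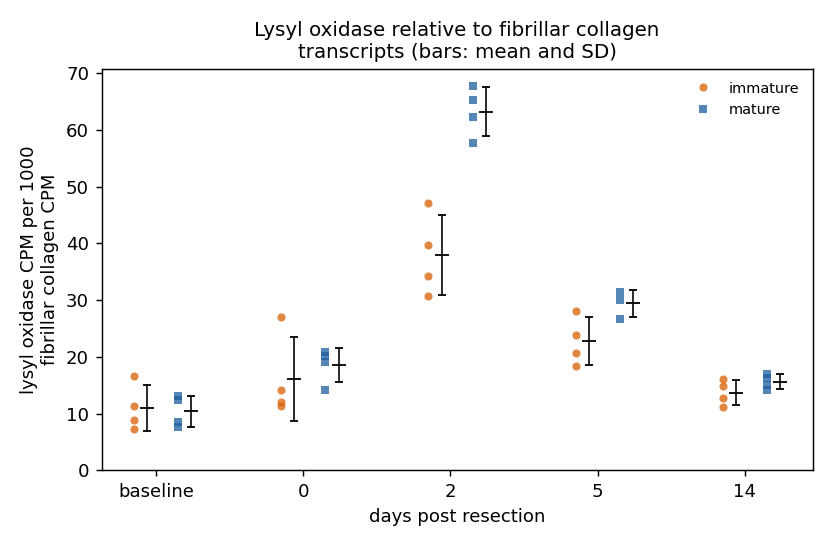
Summed CPM of the 5 lysyl oxidase genes per 1000 summed CPM of 11 fibrillar collagen genes (vertical axis, from 0) by stage, circles for immature and squares for mature libraries, bars for the mean and SD. At 2dpr the mature libraries, 57.6 to 67.8, lay above the immature ones, 30.8 to 47.1.

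The list for elastic fibres, whose elastin is the other substrate of the family, had 13 genes. At baseline 4 of them were called higher in immature mice and none lower, with 0.358% of all genes higher, and the median log2 difference of the 13 was 0.52 against 0.00 over all genes. Eln, which encodes elastin itself, had 105 ± 21.2 CPM in immature and 30.7 ± 6.15 CPM in mature baseline tissue (log2 difference 1.77 ± 0.321, adjusted p = 0.00473). Mfap4, a microfibril-associated protein, differed by 1.94 ± 0.252 (adjusted p = 3.70e-05). At 2dpr 4 were again called higher in immature mice (0.457% of all genes), led by Fbn2, the fibrillin of developing tissue, at 46.3 ± 11.6 against 8.74 ± 3.63 CPM (adjusted p = 0.000340). At 5 and 14dpr none was called. From baseline to 14dpr 10 of the 13 rose in immature and 12 in mature mice (median 2.03 and 2.43, with 16.4% and 17.1% of all genes called higher), with Eln at 2.18 ± 0.320 and 3.66 ± 0.343 on the log2 scale. The interaction of age and stage at 14dpr was called for Mfap4 (-1.93 ± 0.338, adjusted p = 0.0155) and not for Eln (-1.48 ± 0.440, adjusted p = 0.278).

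Of the 10 genes for propeptide processing and the scaffold on which Lox is activated, 2 were called higher in immature mice at baseline and 2 at 2dpr (0.358% and 0.457% of all genes), with median log2 differences of 0.36 and 0.47 against 0.00 and 0.04 over all genes. Postn, a matrix protein that binds Bmp1 and collagen, had 1323 ± 349 CPM in immature and 344 ± 140 CPM in mature baseline tissue (log2 difference 1.94 ± 0.361, adjusted p = 0.00481). Pcolce, an enhancer of procollagen C-proteinase, differed by 0.78 ± 0.147 at 2dpr (adjusted p = 0.00697). Bmp1 itself was 0.26 ± 0.178 higher at baseline (adjusted p = 0.630) and 0.63 ± 0.178 higher at 2dpr (adjusted p = 0.0858), values that did not pass. Relative to baseline Bmp1 rose by 0.71 ± 0.178 at 2dpr in immature mice (adjusted p = 0.00171), while the mature value of 0.33 ± 0.178 did not pass (adjusted p = 0.138). The interaction of age and stage for Bmp1 at 2dpr was 0.38 ± 0.251 and was not called (adjusted p = 0.665 in edgeR). At 14dpr Bmp1 had risen by 1.82 and 2.06 on the log2 scale in immature and mature mice.

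The 9 genes for lysine hydroxylation and collagen chaperoning showed no call between the ages at baseline or 2dpr. Against baseline, 7, 8 and 8 of them were higher in immature mice at 2, 5 and 14dpr, with 1 lower at 2dpr and a median log2 change of 1.12 at that stage. Of all genes 18.7%, 15.7% and 16.4% were called higher at these stages, and 18.6% lower at 2dpr. The mature tissue had 6, 8 and 9 of them higher and none lower, with a median of 0.88 at 2dpr, against 19.3%, 17.3% and 17.1% of all genes called higher. Plod2, the hydroxylase of collagen telopeptides, from which the most stable bone cross-links derive, rose by 1.41 ± 0.251 at 5dpr in immature and 1.39 ± 0.265 in mature mice on the log2 scale (adjusted p = 3.94e-05 and 9.61e-05). Of the 5 copper delivery genes, 4, 3 and 4 were higher and 1 lower at 2, 5 and 14dpr in both ages, with a median at 2dpr of 0.92 in immature and 0.63 in mature mice. The share of all genes called higher in these comparisons was 15.7% to 19.3%, and the share called lower 13.7% to 20.8%. Atp7a, the pump that loads copper into lysyl oxidases in the secretory pathway, rose by 1.34 ± 0.125 at 2dpr in immature and 1.26 ± 0.124 in mature mice (adjusted p = 1.28e-10 and 4.44e-10). Atp7b, its counterpart best known from liver, fell in mature mice from 14.8 ± 4.19 CPM at baseline to 1.73 ± 1.48 CPM at 2dpr and 1.05 ± 0.360 CPM at 14dpr. By the interaction test in edgeR, the change of Atp7b from baseline was not called as different between the ages. The log2 values were 0.45 ± 0.686 at 2dpr and 1.77 ± 0.698 at 14dpr (adjusted p = 0.893 and 0.505).

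The last list held 10 genes for proteins that bind fibrils and regulate their width. At 2dpr 6 of them were lower than baseline and 1 higher in each age (median -0.91 in immature and -0.57 in mature mice, against -0.05 and -0.06 over all genes). Of all genes, 18.6% and 20.8% were called lower and 18.7% and 19.3% higher. At 14dpr 8 were higher in immature and all 10 in mature mice, against 16.4% and 17.1% of all genes. Between the ages, 2 were called higher in immature mice at baseline and 2 at 2dpr (0.358% and 0.457% of all genes), with Kera, a keratan sulfate proteoglycan, in both (8.41 ± 4.33 against 2.11 ± 0.898 CPM at baseline, and 2.09 ± 1.02 against 0.122 ± 0.102 CPM at 2dpr).

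Finally, the genes whose log2 CPM ran most like each member over the 39 libraries were listed among 16142 genes with a mean of at least 1 CPM. The libraries share stage and tissue makeup, so these correlations are a description. For Loxl2 the nearest gene was Col3a1 (Pearson r = 0.982), then Fstl1 (0.971) and Lrrc17 (0.962). For Lox they were Arf4 (0.972), Kdelr3 (0.971) and Vcan (0.970), of which the first 2 act in secretory traffic and the third is a matrix proteoglycan. For Loxl3 they were Bcat1 (0.976), P4hb (0.971) and Sec61a1 (0.967), and for Loxl1 Dbn1 (0.954), Cul7 (0.946) and Lmna (0.945). Loxl4 had its nearest genes lower, C130050O18Rik (0.804), Pip5k1c (0.800) and Slc4a2 (0.796). Among the members themselves, Lox and Loxl3 were nearest (0.956), followed by Lox and Loxl2 (0.924), and Loxl4 correlated with the other 4 at 0.586 to 0.654.

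**Figure D5:**
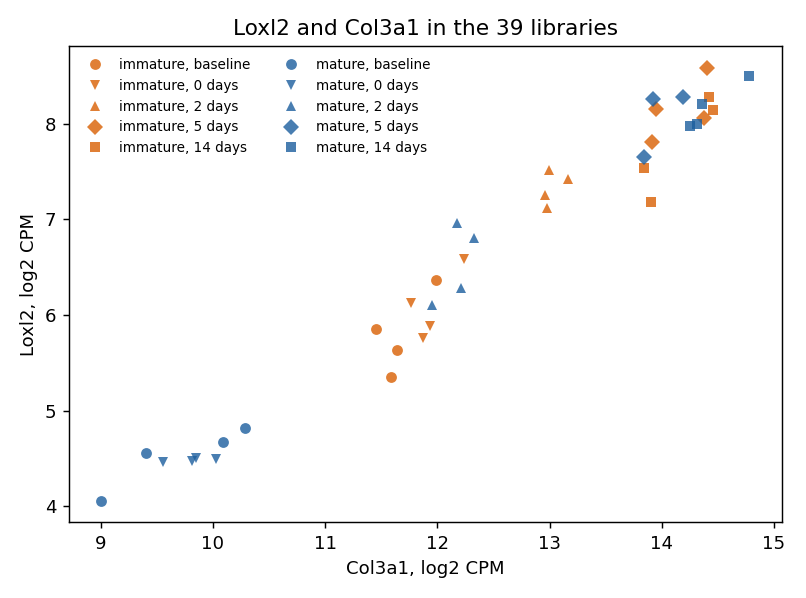
Loxl2 (vertical axis) against Col3a1 (horizontal axis), both in log2 CPM, with 1 point per library, colour for age and shape for stage. Mature baseline and 0dpr libraries lie at the lower left, apart from the immature ones of the same stages, and the 5dpr and 14dpr libraries of both ages lie together at the upper right.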

How the data were processed

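Per the labels and the study's methods, stranded libraries from total RNA were sequenced in paired-end mode on separate runs (the run of each library is not given in the sources used here), and the authors used STAR 2.5.2a to align reads to build GRCm38 and to make gene counts. The authors deposited raw counts for 48733 genes, the counts of a filtered set of 21204 genes, and normalised signal values that equal edgeR's TMM-scaled CPM. Of 40 labelled samples, mature 5dpr replicate 2 was not analysed here.

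The filtered counts of 39 libraries were fitted with edgeR 4.0.16 (R 4.3.3) in 1 model with a term for each of the 10 groups, by quasi-likelihood test. Log2 CPM used a prior count of 2. The ratio to collagens was tested by exact permutation. The study's methods name DESeq2, which was run as an alternative (version 1.42.0). Other alternatives were relative log expression size factors, other gene filters, only the libraries compared, a replicate block, a muscle covariate and leaving out each library. Members and gene lists were chosen with earlier results of these data known. Loxl2 was not tested against or from 0dpr, since those libraries chose it. For each member the 3 genes with the highest correlation were named. Named list genes were 6 set ones (Col1a1, Col3a1, Eln, Bmp1, Plod2, Atp7a) and those with the smallest p, up to 4 for each age comparison or interaction and 2 per list for each change from baseline, of which a part is given. Col1a2 was named after its values were seen. Matn1, a chondrocyte marker, was not found. In data simulated for the age comparison at 2dpr over 21204 genes, 53% of genes changed 2-fold and 87% of those changed 4-fold were called, with 13 false calls among 153. Exonic lengths and positions come from GENCODE vM21. Replicate numbers are not stated to mark a shared animal or batch, and deviations of same-numbered libraries correlated at 0.00847 on average over 154 pairs. At 0dpr all 4 pairs of the ages were above 0.1, at 0.150 on average. That comparison carries no test here.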

Additional observations from a re-analysis of the deposited data

Results flagged for a closer look

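In mature mice at 2dpr, 1 library stood apart for Lox: it held 257 CPM, and its gap to the nearest of the other 3 (382, 388 and 404 CPM) was 0.854 of the range, above Dixon's critical value for 4 libraries. This was the 1 flag among 45 groups of 4 libraries looked at, and chance alone gives about 1 in 20. Without it, the log2 difference of Lox between the ages at 2dpr was 0.02 in place of 0.15, and the rise of mature Lox from baseline was 2.68 in place of 2.55 (adjusted p = 8.96e-14 in edgeR).

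The change of Loxl2 from baseline to 14dpr differed between the ages by a log2 value of -1.64, a smaller rise in immature than in mature mice, by the test of the interaction itself (adjusted p = 0.0357 in edgeR). The ranges at 14dpr overlapped, 145 to 311 CPM against 251 to 362 CPM, and those at baseline did not, 40.7 to 82.5 CPM against 16.5 to 28.0 CPM.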

How the results depend on the processing

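The number of member genes called was counted over all tests of a kind. The count between the ages was 1 of 20 and 2 when only the libraries compared were fitted, the second being Loxl3 at baseline. The count of interactions was 1 of 15 and 0 with relative log expression size factors or the muscle covariate, and it ran from 0 to 1 when 1 library was left out: the Loxl2 call was lost without any of mature baseline replicates 1, 2 and 3, immature baseline replicates 3 and 4, immature 14dpr replicates 2 and 4, and mature 14dpr replicates 1 to 4. Counts against baseline (28 of 38) and between successive stages (13 of 28) stayed within 1.5 times of these under every alternative, with 22 and 12 under the muscle covariate, and no called value changed sign. Over all tests, DESeq2 and edgeR's own expression filter changed no call, while fitting only the libraries compared added 4 calls and lost 2. Keeping all genes with at least 1 count lost 1 call. Not all of these calls are named here. With the replicate block the counts were 1, 26, 13 and 1, and it changed no call other than those of Lox at 0dpr and Loxl4 at 2dpr in immature mice. Replicate numbers 5 and 6 occur once each, so under the block those 2 libraries add nothing to the comparisons. Calls gained when 1 library was left out were those of mature Lox at 0dpr (without mature baseline replicate 4) and mature Loxl4 at 2dpr (without mature 2dpr replicate 3) and 14dpr (without replicate 4), all against baseline, immature Loxl4 from 0 to 2dpr (without immature 0dpr replicate 1 or 2), and mature Loxl3 from 2 to 5dpr (without mature 2dpr replicate 2). The log2 ratio to collagens at baseline, 0.05, ran from -0.17 to 0.23 without 1 library, and took the values -0.08, -0.03 and -0.17 without mature baseline replicate 1, mature baseline replicate 2 and immature baseline replicate 2. The cause of these changes was not tested. Loxl4 had the fewest reads, 48 to 414 per library, while the SE of Loxl1 was above those of the other members in every comparison fitted.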
